A study of Brassica rapa with 38 samples.

Results

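The 200 gene models described here were those whose level in leaf mRNA, after the libraries were put on a common scale, varied least over 3 ploidy levels of *Brassica rapa*, a leafy Brassica vegetable. They were the 200 with the lowest coefficient of variation (CV, the SD divided by the mean) over 8 RNA-seq libraries, among 5469 eligible gene models of 46479 in the tables. A gene model was eligible when it lay on chromosome A01, A03, A05, A06, A07, A08 or A10, outside an excluded stretch of A06, and had a mean of 20 to 500 TPM (a length-corrected share of all transcripts in a library). Because the CV over these libraries chose the members, their low CV and small differences between ploidy levels are a description, and no test is used to support them. Among the eligible genes, length and position were not criteria of the choice. Nor, in a repeat of the choice, was the library left out of it used. At equal TPM a longer transcript gives more reads, so length may still bear on the CV, which was not tested.

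The libraries came from monoploid (3 libraries), diploid (2) and autotetraploid (3) plants of 1 genotype, 85_1. All 3 ploidy levels go back to 1 inbred line: microspore culture gave the monoploid, and each higher level was made by doubling the one before it with colchicine. Plants of all ploidy levels were multiplied in tissue culture, moved to a greenhouse and sampled 60 days after sowing, at heading, as young inner leaves. They therefore share the culture step, and the diploid and autotetraploid share the colchicine step. The labels do not say whether replicate libraries of a ploidy level came from separate plants.

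When a whole genome is doubled, every gene gains copies together, and the share of a transcript in the mRNA stays the same if all genes respond alike. Genes for basic cell functions, such as translation, the cytoskeleton and protein turnover, are often used as reference genes because their share of the mRNA changes little between conditions. Sequencing shares do not give transcripts per cell, so a gene that is stable in TPM can still double its output per cell after genome doubling. In leaf tissue, fewer cells of a type and less RNA per cell cannot be told apart either.

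The libraries held 5.86 to 8.06 Gb of aligned sequence. Coverage (reads per base, averaged along the gene and then over the libraries) ran from 114 to 2922 in the eligible genes, with a median of 241. In the 200 members it ran from 117 to 2777 per gene, with a median of 243. The lowest value of any member in any library was 82.4. How far the counting of reads adds to the CVs given below was not tested. The monoploid libraries were dominated more by their top genes, with 20.9 to 25.5% of TPM in the 100 most abundant gene models of each library against 16.1 to 17.0% in the diploid and 17.8 to 19.7% in the autotetraploid libraries. Each library was therefore divided by the median, over all genes, of its ratio to the mean of the libraries, using 24574 gene models with a mean of at least 1 TPM; the divisors were 0.829 to 0.959 for monoploid, 1.06 and 1.08 for diploid and 1.01 to 1.04 for autotetraploid libraries. Values so divided are called rescaled TPM here. Single autotetraploid libraries stood apart on chromosomes outside the rule, with a median log2 deviation from the mean library of 0.18 on A02 and 0.22 on A09 in autotetraploid 1, 0.31 on A04 in autotetraploid 2 and 0.24 on A02 in autotetraploid 3. None of the gene IDs was paired with a name in the reference table used, so the members carry no function here, and markers of leaf cells could not be looked up.

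The CV of the 200 members ran from 1.49 to 6.20%, with a median of 5.38%, against a median of 16.3% over all eligible genes. Only 71 genes reached 5% or less, while 1042 eligible genes (19.1%) lay at 10% or less. The highest of the 8 libraries exceeded the lowest by 1.04 to 1.25 times in the members (median 1.17), against a median of 1.61 times among the 5463 eligible genes with no library at 0. The limit lay in a dense part of the range. BRA06G0042181, BRA03G0027306 and BRA06G0041482 were the last genes inside, at CVs of 6.198, 6.200 and 6.203%, and BRA10G0013749, BRA03G0028708 and BRA01G0016244 the first outside, at 6.203, 6.204 and 6.204%. Membership near the limit thus separated genes that did not differ in stability by any readable amount.

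**Figure D1:**
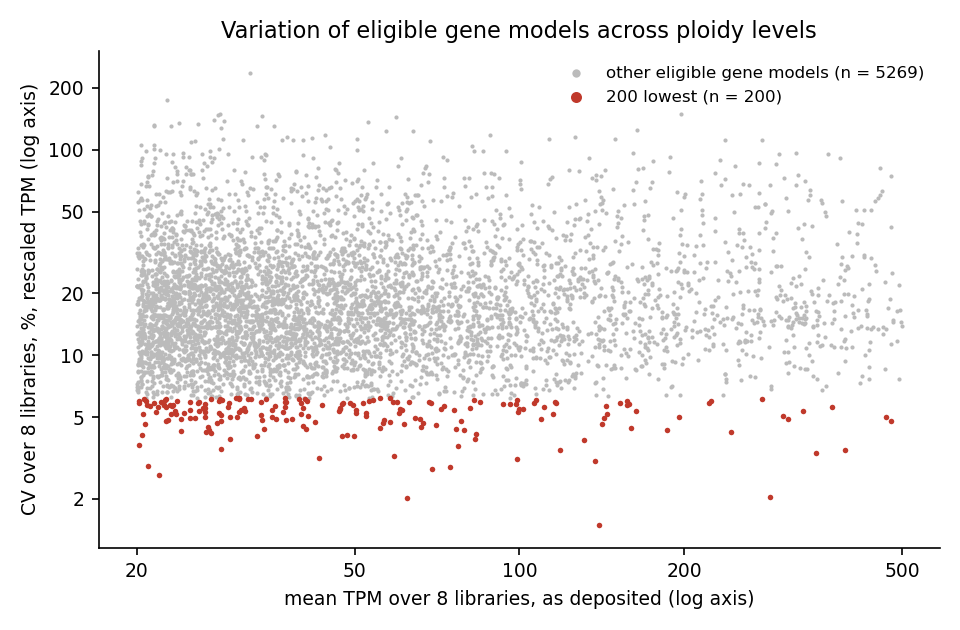
CV over the 8 libraries in rescaled TPM (vertical, %, log axis) against mean TPM as deposited (horizontal, log axis) for the 5469 eligible gene models. The 200 with the lowest CV, at 1.49 to 6.20%, lie along the lower edge over the whole range from 20 to 500 TPM.

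The gene with the lowest CV was BRA08G0010348 (A08:17310927-17312807, minus strand), at 1.49%. Its rescaled TPM, in order of replicate number here and below, was 144, 141 and 143 in the monoploid libraries, 139.7 and 145 in the diploid libraries and 143, 139 and 144 in the autotetraploid libraries. The 3 ploidy levels overlapped fully, with means of 142 ± 1.71 in the monoploid (SD, n = 3), 142 ± 3.60 in the diploid (SD, n = 2) and 142 ± 2.48 in the autotetraploid (SD, n = 3). As deposited, before rescaling, the same gene read 124, 135 and 119 in the monoploid libraries, 148 and 157 in the diploid libraries and 149, 143 and 145 in the autotetraploid libraries. On that scale all 3 monoploid libraries were below all the others.

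BRA07G004446 (A07:17004684-17012961, plus strand; CV 2.02%) had a rescaled TPM of 62.1, 64.8 and 63.4 in the monoploid libraries, 61.4 and 64.6 in the diploid libraries and 64.0, 62.2 and 64.1 in the autotetraploid libraries. BRA08G0011226 (A08:1167452-1169257, plus strand; CV 2.04%) was more abundant, at 292, 301 and 298 in the monoploid libraries, 288 and 288 in the diploid libraries and 284, 291 and 299 in the autotetraploid libraries. In both, the highest library was monoploid 2, and the diploid and autotetraploid libraries lay within or just below the monoploid range. BRA06G0040976 (A06:8133056-8136916, minus strand; CV 2.62%) was at the low end of the level range, at 22.7, 23.5 and 22.0 in the monoploid libraries, 21.8 and 22.2 in the diploid libraries and 21.9, 22.0 and 22.7 in the autotetraploid libraries. Its start lay 675 bp from that of a divergently oriented neighbour. Its monoploid 2 value was again the highest, and the other 7 libraries fell between 21.8 and 22.7.

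BRA10G0012292 (A10:25725117-25726089, minus strand; CV 2.80%) was the member with the lowest CV whose diploid libraries both exceeded every monoploid library. It read 68.6, 70.2 and 67.3 in the monoploid libraries, 73.0 and 71.8 in the diploid libraries and 71.4, 71.5 and 68.7 in the autotetraploid libraries, a log2 difference of 0.08 between diploid and monoploid. BRA01G0018550 (A01:4178073-4180291, minus strand; CV 3.05%) also had both diploid libraries above every monoploid library, at 136, 141 and 133 in the monoploid libraries, 145 and 144 in the diploid libraries and 139.8, 136 and 138 in the autotetraploid libraries. In BRA01G0018550 the autotetraploid libraries lay in the monoploid range, whereas in BRA10G0012292 they bridged the monoploid and diploid values.

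BRA05G0042377 (A05:510718-514017, minus strand; CV 2.87%) read 76.6, 75.2 and 76.0 in the monoploid libraries, 74.0 and 79.3 in the diploid libraries and 72.1, 77.1 and 77.0 in the autotetraploid libraries, with autotetraploid 1 as its lowest library and diploid 2 as its highest. BRA05G0046013 (A05:40745141-40749982, plus strand; CV 2.88%) read 22.3, 21.2 and 20.7 in the monoploid libraries, 21.4 and 21.5 in the diploid libraries and 21.9, 20.6 and 20.8 in the autotetraploid libraries, with all ploidy levels overlapping. BRA08G009266 (A08:23885121-23885974, minus strand; CV 3.15%) ran from 95.4 in autotetraploid 1 to 106 in diploid 2. BRA03G0026834 (A03:13062795-13066012, plus strand; CV 3.17%) ran from 41.1 in autotetraploid 1 to 45.4 in monoploid 3. Autotetraploid 1 was thus the lowest library in 3 of these 4 genes. This was not particular to them. The genes within the limits of level had a median log2 deviation below 0 in autotetraploid 1 on all 7 chromosomes of the rule, from -0.038 on A01 to -0.073 on A08. Coordinates are those of the assembly the files use, whose name is not given in the sources used here, and each names the whole gene model, introns included.

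**Figure D2:**
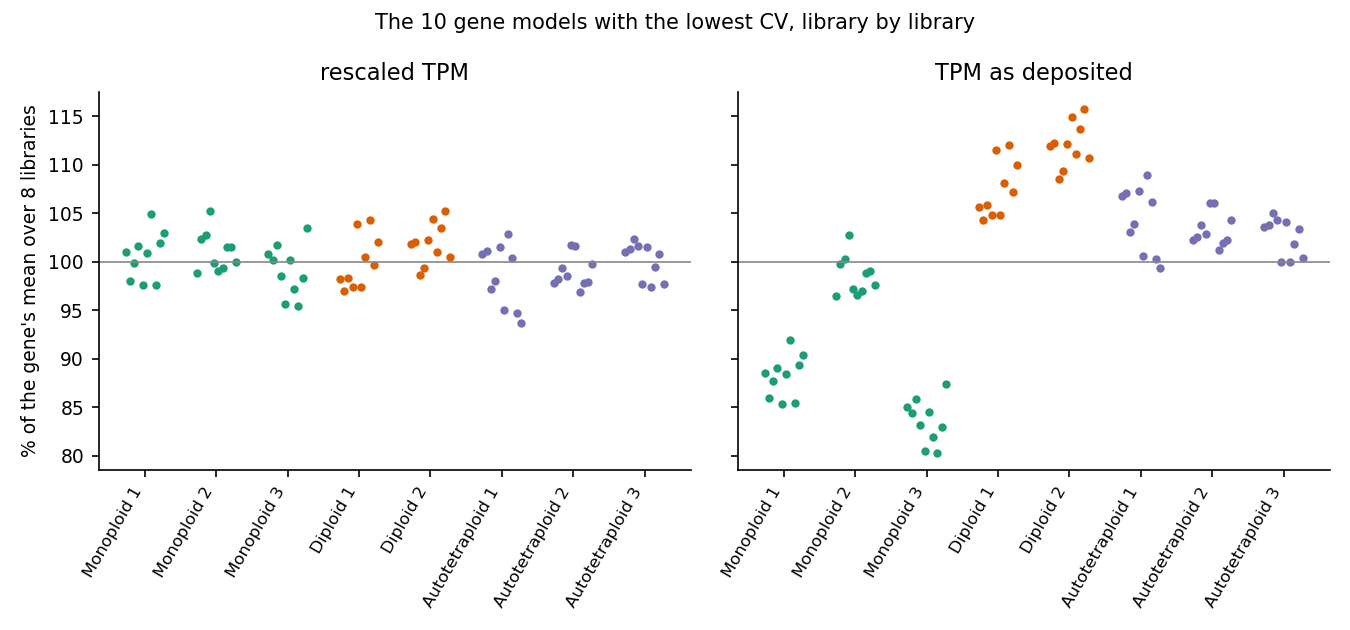
Each library's value as a percentage of the gene's mean over 8 libraries (vertical), for the 10 genes with the lowest CV, drawn from left to right in order of CV within each library (horizontal), in rescaled TPM (left) and TPM as deposited (right). After rescaling the 10 genes lie on both sides of 100% in most libraries, and as deposited all values of monoploid 1 and monoploid 3 lie below it.

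The members covered the whole allowed range of levels, from 20.1 to 477 TPM, with a median of 41.7 against 41.5 over all eligible genes. Divided into 4 groups of equal size by level, from the lowest, the eligible genes held 51, 49, 49 and 51 members, so the share of members was alike at low and high levels. The most abundant was BRA10G0012264 (A10:25836517-25837812, minus strand), with a rescaled TPM of 452, 476 and 459.9 in the monoploid libraries, 509 and 478 in the diploid libraries and 518, 482 and 499 in the autotetraploid libraries. All its diploid and autotetraploid libraries exceeded the highest monoploid library. BRA08G008010 (A08:29875797-29876380, minus strand) followed at 487, 439 and 469 in the monoploid libraries, 494 and 499 in the diploid libraries and 461, 499.6 and 448 in the autotetraploid libraries, with monoploid 2 as its lowest and autotetraploid 2 as its highest library. BRA01G0017867 (A01:8144498-8148209, minus strand) read 419, 416 and 400.3 in the monoploid libraries, 382 and 383 in the diploid libraries and 402, 406 and 395 in the autotetraploid libraries, and both its diploid libraries were below all the others. BRA06G0040860, at a mean of 372 TPM, and BRA01G0016925, at 348 TPM, were next. The 5 members of lowest level, BRA06G0038048, BRA06G0039475, BRA05G0046436, BRA03G0026378 and BRA01G0018967, had means of 20.1 to 20.5 TPM, just above the lower limit of the rule. Of these, BRA06G0039475 had the lowest CV (3.64%) and ranged only from 19.0 in monoploid 1 to 21.4 in diploid 2.

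Stability here was relative to the scale. As deposited, the members together took 1.21 to 1.41% of TPM in the monoploid, 1.58 and 1.61% in the diploid and 1.48 to 1.53% in the autotetraploid libraries, and these 3 ranges did not overlap. Their median log2 difference on log2(TPM + 1) as deposited was 0.30 for the diploid and 0.23 for the autotetraploid, each minus the monoploid, and all 200 were above 0 in both. Over all tested gene models the same medians were 0.25 and 0.19, so the members shifted with the bulk of the genes. Taking the 100 most abundant gene models out of the TPM total, a choice made after seeing the data, brought the members' medians to 0.19 and 0.15. After rescaling, the summed level of the members was 14631 to 14719 in the monoploid, 14911 and 14936 in the diploid and 14686 to 14931 in the autotetraploid libraries. When the same choice was made on TPM as deposited, only 15 of the 200 members were chosen again.

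On rescaled TPM the diploid and monoploid means of the members differed by a median log2 value of 0.03, with a range from -0.15 to 0.17, and 127 members were above 0 and 73 below. The eligible genes had a median of 0.04 and ran from -6.60 to 5.88. Within 0.1 of 0 lay 166 members (83%) against 19.2% of eligible genes. At the upper end stood BRA05G0045217 (A05:36694711-36695919, plus strand), at 215, 209.8 and 219 in the monoploid libraries, 243 and 239 in the diploid libraries and 244, 229 and 217 in the autotetraploid libraries. Its diploid libraries exceeded all monoploid libraries, and autotetraploid 1 was as high as the diploid. BRA10G0013332, with a log2 difference of 0.16, had means of 55.6 ± 3.92 in the monoploid (SD, n = 3) and 62.1 ± 1.44 in the diploid (SD, n = 2). At the lower end BRA06G0040553 (A06:10660805-10665686, plus strand) read 24.7, 23.5 and 24.1 in the monoploid libraries, 21.0 and 22.3 in the diploid libraries and 22.6, 24.5 and 21.4 in the autotetraploid libraries. Here the diploid libraries were below the monoploid ones, while autotetraploid 2 lay in the monoploid range. BRA06G0040860, with a difference of -0.13, was the next lowest. As deposited, the differences of these 2 genes were 0.12 and 0.15, above 0.

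Between autotetraploid and monoploid the members' median log2 difference was 0.01, from -0.15 to 0.16, with 116 above 0 and 84 below. Within 0.1 of 0 lay 158 members (79%) against 19.3% of eligible genes. The highest was BRA08G007826 (A08:30608764-30610508, plus strand), whose start lay 254 bp from that of a divergently oriented neighbour. It read 33.1, 33.9 and 30.7 in the monoploid libraries, 35.5 and 36.0 in the diploid libraries and 36.1, 36.4 and 37.0 in the autotetraploid libraries. All 5 diploid and autotetraploid libraries exceeded the highest monoploid library, and the same held for BRA06G0042175, with means of 97.0 ± 3.46 in the monoploid (SD, n = 3), 104 ± 2.11 in the diploid (SD, n = 2) and 108 ± 1.45 in the autotetraploid (SD, n = 3). The lowest was BRA05G0044126 (A05:10953238-10954462, plus strand), at 51.6, 55.7 and 50.9 in the monoploid libraries, 50.6 and 48.5 in the diploid libraries and 47.3, 48.2 and 46.7 in the autotetraploid libraries. BRA08G009519 had a difference of -0.14. In both genes the autotetraploid libraries were all below the monoploid libraries in rescaled TPM, while as deposited the differences were 0.063 and 0.070, above 0.

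Between autotetraploid and diploid the members' median was -0.01, from -0.16 to 0.13, with 90 above 0 and 110 below, and 182 members (91%) lay within 0.1 of 0. Of the eligible genes 53.0% lay that close, so the members differed less from other genes in this comparison than in those with the monoploid. BRA03G0024655 (A03:2231774-2233407, plus strand) was the lowest, with 21.2, 22.7 and 20.4 in the monoploid libraries, 23.3 and 22.7 in the diploid libraries and 20.3, 20.6 and 20.6 in the autotetraploid libraries. Its monoploid libraries covered the gap between the autotetraploid and the diploid values. BRA06G0040665 had a difference of -0.14. The highest were BRA10G0011946 (A10:27220954-27223375, plus strand), at 95.7, 104 and 93.7 in the monoploid libraries, 98.3 and 95.2 in the diploid libraries and 110.2, 100.2 and 108 in the autotetraploid libraries, and BRA03G0024527, with a difference of 0.13. In BRA10G0011946 the diploid values lay inside the monoploid range. The 3 comparisons share libraries, so their values are set side by side without a test of one against another.

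**Figure D3:**
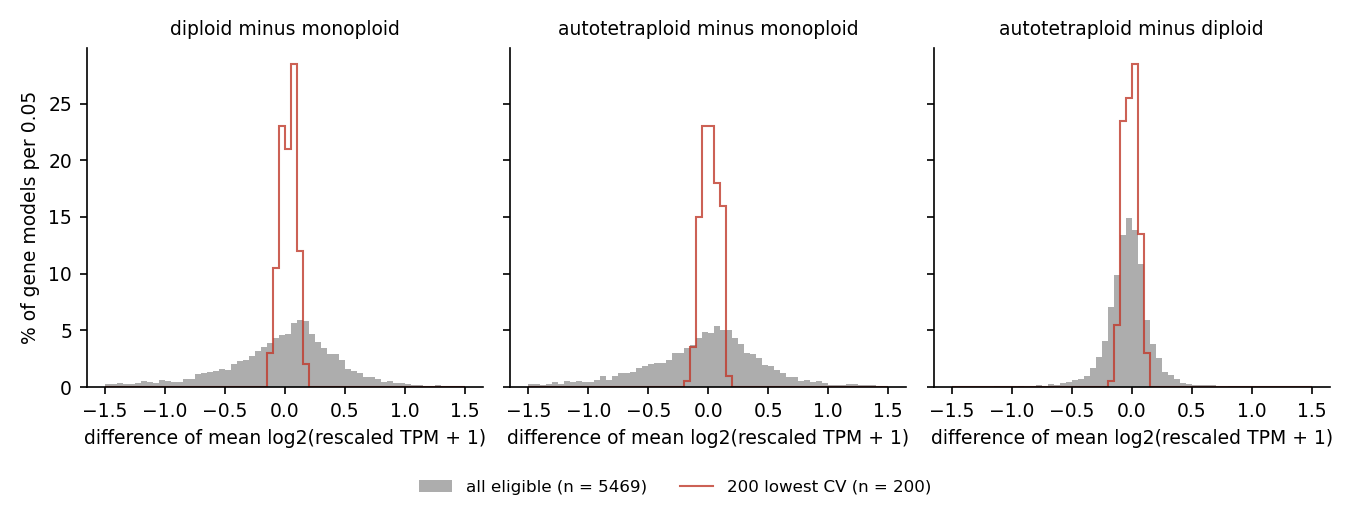
Differences of mean log2(rescaled TPM + 1) between ploidy levels (horizontal; bins of 0.05, differences beyond 1.5 on either side are not drawn) as a percentage of gene models (vertical), for the 5469 eligible genes (grey) and the 200 with the lowest CV (red line). The red lines stay between -0.16 and 0.17, and the grey distribution is narrower between autotetraploid and diploid than in the comparisons with the monoploid.

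Separation of the ploidy levels was counted library by library. In 40 members both diploid libraries were above all monoploid libraries and in 12 both were below, where 27.3 and 28.1% of the 25652 tested gene models and 29.6 and 26.7% of the eligible ones were so placed. Between autotetraploid and monoploid the groups did not overlap in 22 members with the autotetraploid above and 9 with it below, where the tested genes gave 22.6 and 23.2% and the eligible ones 24.2 and 24.9%. Between autotetraploid and diploid the counts were 12 and 25, where the tested genes gave 10.8 and 10.7% and the eligible ones 6.27 and 11.8%. As deposited, 173 members were higher in every diploid than in every monoploid library (45.8% of tested genes) and 127 higher in every autotetraploid than in every monoploid library (35.4%). Leaving out any of the libraries compared moved the rescaled counts in both directions together from 52 to between 77 (monoploid 1) and 105 (diploid 2), from 31 to between 52 (autotetraploid 2 and 3) and 57 (monoploid 2), and from 37 to between 54 (autotetraploid 3) and 101 (diploid 2), since fewer libraries overlap less by construction. The choice used these same libraries, so nothing is read from the counts.

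In limma, fitted to log2(rescaled TPM + 1) of all 25652 tested gene models with Benjamini-Hochberg adjustment, 0 of the 200 members passed an adjusted p of 0.05 with a log2 change of at least 1 in any comparison, and 0 had an unadjusted p under 0.05. No other tool was run. Of all tested genes, 9.94% were called in the diploid against the monoploid, 11.5% in the autotetraploid against the monoploid and 0.0273% in the autotetraploid against the diploid. The rule allowed no other outcome at that fold. The members' p-values carry no weight either, since the low CV over these same libraries chose the members and left only small differences between ploidy levels. On TPM as deposited 31 members passed the adjusted p alone in the diploid (33.4% of tested genes) and 19 in the autotetraploid (38.3%), each against the monoploid.

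Which ploidy level stood lowest varied from member to member, in shares near those of the eligible genes. The mean was lowest in the monoploid in 93 members (46.5%, against 46.4% of eligible genes), with the order monoploid, autotetraploid, diploid in 48 and monoploid, diploid, autotetraploid in 45. The autotetraploid mean was the lowest in 62 members (31%, against 34.9% of eligible genes) and the diploid mean in 45 (22.5%, against 18.7%). The full orders, from lowest to highest, were less alike. Autotetraploid, diploid, monoploid was the order in 14% of members against 27.9% of eligible genes, and diploid, autotetraploid, monoploid in 11% against 14.6%. Autotetraploid, monoploid, diploid was the order in 17% against 6.93%, and diploid, monoploid, autotetraploid in 11.5% against 4.11%. Single libraries were unequal in how often they stood highest or lowest. Monoploid 2 was the highest library in 41 members and the lowest in 34, monoploid 3 the lowest in 44 and autotetraploid 1 the lowest in 40, while diploid 2 was the lowest in only 7. By ploidy level the lowest library was monoploid in 104 members, autotetraploid in 71 and diploid in 25, with 3, 3 and 2 libraries to draw from.

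In the median member, most of the remaining variation lay within ploidy levels. Of the variance of a member's log2 values, a median of 27.4% was between ploidy levels, against 57.5% over the eligible genes. The share is not adjusted for the number of groups, so part of it would remain with no difference between ploidy levels. The low CV over these same libraries chose the members, so nothing is read from their lower share. Within ploidy levels the members' median CV was 4.97% in the monoploid, 2.96% in the diploid and 4.29% in the autotetraploid libraries, against 12.2, 7.07 and 10.4% over the eligible genes. The diploid value rests on 2 libraries. One library could hold most of a member's variation. BRA03G0026756, for example, the member with the shortest span (438 bp; A03:12649115-12649552), read 97.5, 116 and 115 in the monoploid libraries, 116 and 115 in the diploid libraries and 113, 112 and 116 in the autotetraploid libraries. Monoploid 1 was its only library under 112, and the other 7 lay within 4 TPM of each other.

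Repeating the choice without 1 library at a time gave values that the choice had not used. The 200 genes chosen on the other 7 libraries deviated in the left-out library by a median absolute log2 value of 0.060 (diploid 2) to 0.161 (monoploid 2), with a median over the 8 repeats of 0.084. All eligible genes deviated by 0.116 to 0.255, with a median of 0.202. The chosen genes deviated less in each of the 8 repeats. Taken as a ratio of chosen to eligible genes, the values were closest for autotetraploid 3, at 0.084 against 0.130 (ratio 0.642), and monoploid 2, at 0.161 against 0.255 (ratio 0.632), and farthest apart for monoploid 1, at 0.085 against 0.244 (ratio 0.347). Within 0.1 of the other libraries lay 32.5% of the chosen genes in monoploid 2 (21.6% of eligible genes) and 76.5% in diploid 2 (44.5% of eligible genes). The largest deviation of any chosen gene was 0.72, in monoploid 2. These are descriptions, with no test, since the repeats share most of their libraries.

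**Figure D4:**
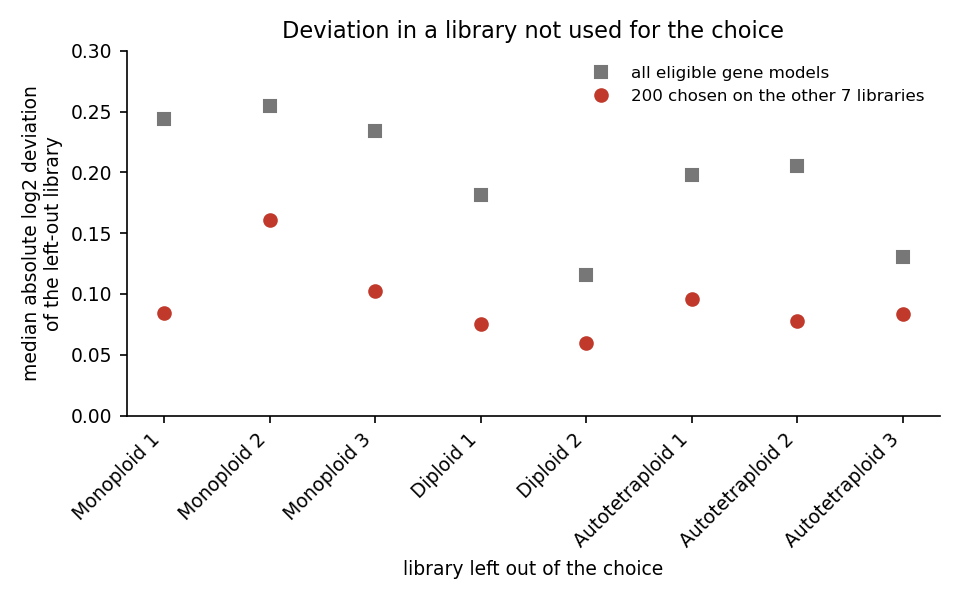
Median absolute log2 deviation (vertical) of each library left out of the choice (horizontal) from the mean of the other 7, for the 200 genes chosen on those 7 (circles) and for all eligible gene models (squares). The circles lie below the squares for all 8 libraries, at 0.060 to 0.161 against 0.116 to 0.255.

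Membership itself was less stable than the values. The reduced choices shared 118 (without monoploid 2) to 175 (without diploid 2) genes with the 200 members. In all 8 reduced lists stood 94 members, with a median CV of 4.72%. Another 47 stood in 5 to 7 of the lists (median CV 5.57%) and 59 in 1 to 4 (median CV 5.98%), and every member stood in at least 1. Of the 50 members with the lowest CV, 49 were in all 8 lists. The exception was BRA06G0039475, at a mean of 20.2 TPM close to the lower limit of level.

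Leaving out a whole ploidy level took the choice further from the values read. Genes chosen on diploid and autotetraploid libraries alone shared 50 genes with the members, and their monoploid mean deviated from the other libraries by a median absolute log2 value of 0.14, against 0.28 over the eligible genes. One of them deviated by at least 1, at 1.35. Genes chosen without the diploid deviated in it by 0.06 (eligible 0.15), and genes chosen without the autotetraploid by 0.06 (eligible 0.20), with 138 and 113 genes shared with the members and none deviating by 1 or more. The deviation of the chosen genes was thus larger in the left-out monoploid than in either of these left-out levels, and the same held for all eligible genes.

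Among the properties that were not criteria of the rule, length was the one in which the members differed most visibly from the eligible genes. Their genomic span, from the first to the last base of the gene model, had a median of 2192 bp (438 to 16780 bp) against 1638 bp. With the eligible genes divided into 4 groups of equal size by span, 19, 41, 58 and 82 members were found from the shortest to the longest group, which is 1.39, 3.00, 4.24 and 6.0% of each. The median CV of all eligible genes went the other way, at 19.6, 16.1, 15.4 and 14.1% from shortest to longest. Within the lowest group of level the shortest group of span gave 1 member of 268 genes and the longest 30 of 421. Within the highest group of level the counts were 12 of 536 and 10 of 200. The span includes introns and the tables give no transcript length, so the number of reads per gene could not be set beside these counts. Whether the span of the members goes with more reads per gene, and through it with their CV, was not tested. The longest member, BRA06G0038713 (A06:44106444-44123223, minus strand), read 146, 148 and 151 in the monoploid libraries, 162 and 140.2 in the diploid libraries and 149, 145 and 136 in the autotetraploid libraries. It overlapped other gene models on its own strand, so reads could be shared among them and its level is uncertain; no other member overlapped another gene model.

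**Figure D5:**
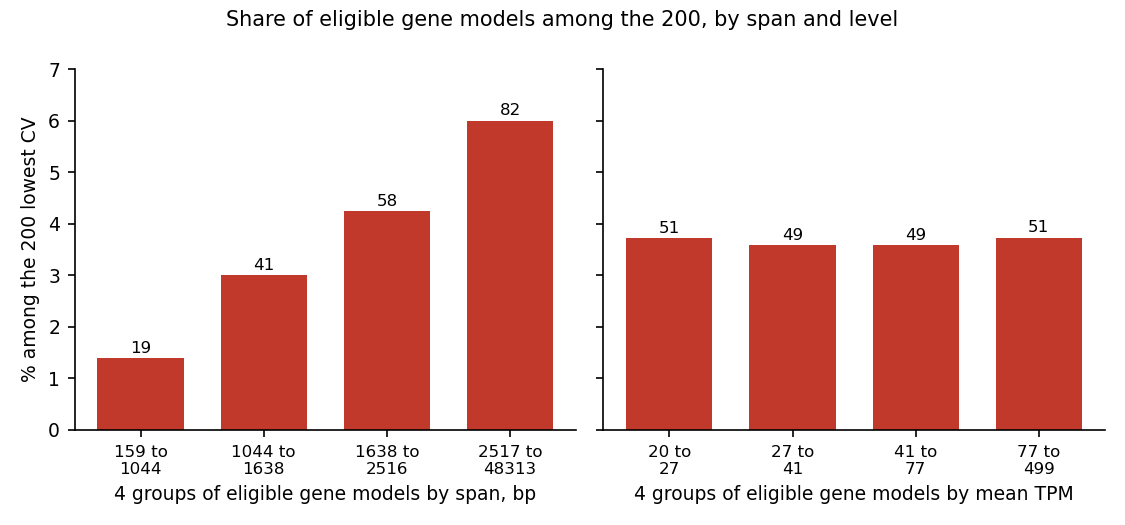
Percentage of eligible gene models that are among the 200 with the lowest CV (vertical, from 0; numbers of members above the bars), by 4 groups of equal size in genomic span in bp (left) and in mean TPM (right). The share goes from 1.39 to 6.0% with span and stays between 3.58 and 3.73% over the groups of level.

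The members were spread over all 7 chromosomes. A06 held 36, A01 35, A03 32, A05 27, A08 26, A07 24 and A10 20, which is 2.76% (A03) to 4.40% (A01) of the eligible genes of each chromosome. The lowest CV on a chromosome was 1.49% on A08, 2.02% on A07, 2.62% on A06, 2.80% on A10, 2.87% on A05, 3.05% on A01 and 3.17% on A03, with median CVs of 5.22 to 5.71%. When A02, A04, A09 and the excluded stretch of A06 were let in under the same limits of level, 182 members stayed. Of the genes on A02, A04 and A09, 3 of 710, 3 of 551 and 12 of 1145 were among the lowest 200. These are shares of 0.42, 0.54 and 1.05%. On the 7 chromosomes of the rule the shares were then 2.59% (A03) to 4.40% (A01). A02, A04 and A09 are the chromosomes on which single autotetraploid libraries stood apart. Their eligible-level genes had median CVs of 18.5, 18.8 and 17.4%. Without the A06 stretch, the 7 chromosomes of the rule had 15.7 (A10) to 17.2% (A07). With the stretch let in, A06 had 17.9%, above A09. Of the gene models in the A06 stretch left out by the rule, none was among the lowest 200.

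Along the chromosomes, divided into 5 equal parts, 63, 24, 8, 39 and 66 members were found from first to last. Relative to the eligible genes there the shares were 3.87, 3.76, 1.54, 3.64 and 4.09%, lowest in the middle part. The plus strand held 97 and the minus strand 103. Starts within 1000 bp of a divergent neighbour's start were found for 28 members (14%) and 12.2% of eligible genes. Of the 400 gene models next to a member 8 (2%) were members themselves, against 89 (0.814%) of the 10938 next to an eligible gene. A CV is given for only 89 of the 400, those that were eligible, with a median of 15.0% against 16.4% beside eligible genes in general. Of the 400, 37.5% had a mean under 1 TPM, as did 37.5% of the gene models next to an eligible gene.

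The 8 formed 4 pairs, each on 1 strand. BRA05G0046013 and BRA05G0046014 on A05 were 645 bp apart, with CVs of 2.88 and 5.73% and mean levels of 21.0 and 23.3 TPM. BRA07G006580 and BRA07G006581 on A07, 760 bp apart, were also alike in level, at 37.3 and 37.5 TPM. BRA07G005323 and BRA07G005324, 1112 bp apart on A07, differed in level, at 78.1 and 309 TPM. BRA06G0038370 and BRA06G0038369, 1816 bp apart on A06, had their highest value in autotetraploid 3, at 57.7 and 28.2 rescaled TPM. In the last pair the log2 difference between autotetraploid and monoploid was 0.13 and 0.14, among the larger ones of the 200.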

How the data were processed

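RNA-seq reads of 8 leaf libraries were trimmed by the authors with fastp (version 0.21.0), aligned with HISAT2 and quantified per gene model with StringTie (version 1.3.5). The deposited TPM and FPKM values and the coverage of each gene model (mean reads per base, a signal) came from StringTie, per the file headers. The assembly is not given in the sources used here. Aligned bases were computed from coverage and FPKM. In addition, 3 further value columns in 1 file repeat the other monoploid libraries or hold a mean and were not used. Libraries were grouped by the labelled ploidy level. TPM was rescaled by median ratios, and CV, differences on log2(rescaled TPM + 1) (pseudocount 1), group overlap and left-out deviations were computed with pandas (version 2.3.3) and numpy (version 2.4.6). All genes with at least 1 TPM in at least 2 libraries (25652) were fitted together with limma (version 3.58.1) in R (version 4.3.3), with a mean-variance trend and Benjamini-Hochberg adjustment. The p-values measure only the spread between these libraries, which may be technical. The choice of genes and the fit were tested on simulated data. The members, the rule and the gene lists were chosen with earlier results of these data known. Genes named are the 10 with the lowest CV, the lowest on each chromosome, the 5 of highest and of lowest level, the 2 largest differences each way per comparison, the 3 genes on either side of the limit, the shortest and the longest, and neighbouring members. Alternatives were other scalings, pseudocounts, filters, measures of variation, level limits and sets of libraries. A list of common reference genes could not be matched by symbol. ChIP-seq and ATAC-seq samples had no bearing on the choice and were not analysed here.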

Additional observations from a re-analysis of the deposited data

How the results depend on the processing

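The choice of members depended most on the scale. It shared 15 genes with the 200 members on TPM as deposited, 118 after quantile normalization and 52 on TPM without the 100 most abundant gene models (added after seeing the data). It shared 53 with CVs over ploidy means, 75 with the mean CV within ploidy levels, 107 with means of 5 to 500 TPM, 113 from monoploid and diploid libraries only and 50 from diploid and autotetraploid libraries only. In the same order, without the added setting, the median CV of the chosen genes was 7.30, 5.83, 7.98, 7.38, 4.75, 4.56 and 2.96% and the highest 8.54, 6.65, 37.3, 26.1, 5.45, 5.41 and 3.54%; the range divided by the mean gave a highest CV of 7.47%. Without 1 library at a time, 118 (without monoploid 2) to 175 genes were shared, at median CVs of 4.38 to 5.47% and highest CVs of 5.29 to 6.31%. The median left-out deviation was 0.116 as deposited. The members' median log2 differences as deposited, after quantile normalization and without the 100 gene models were 0.30, 0.12 and 0.19 (diploid minus monoploid), 0.23, 0.081 and 0.15 (autotetraploid minus monoploid) and -0.067, -0.042 and -0.031 (autotetraploid minus diploid). Without 1 library they ran from 0.021 to 0.042, from 0.0072 to 0.023 and from -0.019 to -0.0014. Members without overlap numbered 173 as deposited, 110 after quantile normalization and 49 to 105 without 1 library between diploid and monoploid, 127, 55 and 32 to 57 between autotetraploid and monoploid, and 70 as deposited and 37 to 101 without 1 library between autotetraploid and diploid. Fewer libraries overlap less by construction. Counts of all genes called by limma were 1482 with no filter, 1590 at a mean of at least 5 TPM, 1666 at an adjusted p of 0.01 and 1319 (without diploid 1) to 2737 without 1 library between diploid and monoploid (2549 as reported), 1862 at 5 TPM and 2720 to 3191 without 1 library between autotetraploid and monoploid (2940), and 2 at 5 TPM, 3 with only the groups compared and 6 to 52 (15 without diploid 2, 52 without diploid 1) without 1 library between autotetraploid and diploid (7). The cause of the other shifts was not tested. Whether equal replicate numbers pair samples across ploidy levels was not tested. With the replicate number as a block the counts were 2246, 2977 and 7, with 0 members called. The log2 differences of 4 named members changed sign: as deposited, BRA06G0040553 read 0.12 and BRA06G0040860 0.15 (0.055 after quantile normalization) between diploid and monoploid, and BRA05G0044126 0.063 and BRA08G009519 0.070 between autotetraploid and monoploid, all below 0 on rescaled TPM. Gene names and transcript lengths not given in the tables limit what can be said of the members, and 2 diploid libraries limit every diploid value.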
